A study of Mus musculus with 14 samples.

Results

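Lgr5, Procr and Thy1 are surface protein genes that have each been proposed to mark stem cells of the mouse mammary gland. They were taken by name, with every probe set of the deposited table that carries 1 of these symbols and no other. Each gene had 1 such probe set, so 3 of 6044 named genes in the table are described here. Levels were measured in total RNA of cells sorted from mammary glands of virgin female C57BL/6 mice aged 6-8 weeks by the sample labels. The arrays covered Thy-1+CD24medCD49fhigh, Thy-1-CD24medCD49fhigh and CD24medCD49fmed cells (n = 3 each), CD24highCD49fmed cells (n = 3) and CD24medCD49f-/low cells (n = 2), 14 in all. The cells carried no transgene or treatment by the labels, and all were sorted 2 times after staining of CD49f, CD24 and Thy-1, together with the blood and endothelial antigens CD45, Ter119 and CD31. Among the study's biotinylated antibodies its methods also name 1 to CD140α, a fibroblast antigen that the labels leave out. The study treats Thy-1+CD24medCD49fhigh cells as enriched for mammary repopulating units that can be transplanted serially. It treats Thy-1-CD24medCD49fhigh cells as enriched for short-term units of lower proliferative capacity. The CD24medCD49fmed cells, which it names CD24lowCD49fmed, it treats as myoepithelial. These 3 populations are called basal below (9 arrays), and CD24highCD49fmed and CD24medCD49f-/low are called luminal (5 arrays). Nothing in the labels says whether replicates came from separate mice or pools, so p-values measure only the spread between these arrays.

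Wnt signals keep epithelial stem cells dividing in several tissues, and R-spondin ligands strengthen them by binding receptors of the Lgr family. Lgr5 is 1 of these receptors and a Wnt target gene, best known as the marker of intestinal crypt base stem cells. Procr encodes the endothelial protein C receptor, which holds protein C on the cell surface while thrombin bound to thrombomodulin activates it. It is abundant on endothelium, and has been described as a Wnt target that marks a rare basal mammary cell. Thy1 encodes Thy-1 (CD90), a small protein held in the membrane by a glycosylphosphatidylinositol (GPI) anchor and found on T cells, neurons, fibroblasts and some basal epithelial cells. Because the Thy-1 antigen defined 2 of the populations, the Thy1 transcript between those 2 is a check of the sort and not a result.

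The Lgr5 probe set is 1450988_at, and the gene lies on mouse chr10:115450314-115587780 (GRCm38.p6). The Procr probe set is 1420664_s_at, for a gene on chr2:155751125-155755478. The Thy1 probe set is 1423135_at, for a gene on chr9:44043384-44048579. Of the 3 genes 1, Procr, matched the RefSeq promoter table. Its promoter is shown because Procr has been described as a Wnt target. The promoter spans chr2:155750967-155751266 (GRCm38.p6, plus strand), 250 bases before and 50 after the transcription start used for it. That start lies downstream of the first base of the gene coordinates given above. The letters CTTTG, the core that TCF/LEF factors bind, are in capitals.
Procr: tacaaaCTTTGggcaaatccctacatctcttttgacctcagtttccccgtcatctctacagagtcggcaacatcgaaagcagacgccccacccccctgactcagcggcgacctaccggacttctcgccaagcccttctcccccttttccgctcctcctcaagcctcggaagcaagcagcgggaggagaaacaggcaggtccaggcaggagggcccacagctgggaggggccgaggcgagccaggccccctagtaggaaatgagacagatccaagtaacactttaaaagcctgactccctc
CTTTG was found 1 time on the printed strand and 0 times on the other. Of 32851 promoters of this length 53.9% hold it on either strand, so its presence does not set this promoter apart.

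All values are log2 signals from which the authors had subtracted each probe set's mean over the 14 arrays, so 0 is that mean and a difference of 1 is a doubling. Levels therefore cannot be set against each other between genes. Lineage genes followed the labels. Of 15 measured basal epithelial markers 15 were higher in basal than in luminal cells, with a median difference of 4.05, and of 15 luminal markers 15 were lower, with a median of -2.94 (limma, adjusted p under 0.05 in each). In 2 arrays, Thy-1+CD24medCD49fhigh replicates 1 and 3, the median over all rows was -0.74 and -0.51, against -0.15 to 0.28 in the other 12. Differences of Lgr5, Procr and Thy1 that rest on them are given with and without them. The genes Cd24a and Itga6, which encode the CD24 and CD49f antigens, were not analysed here.

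All 3 genes were higher in basal than in luminal cells, Lgr5 and Procr by more than Thy1. The call passed in 3 of 3 genes, where 45.1% of all 7190 rows passed in either direction and 17.4% as higher. In bulk RNA, fewer cells of a type and less RNA per cell cannot be told apart.

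Lgr5 was 0.98 on average in the basal arrays (SD 1.46, n = 9), against -1.76 in the luminal arrays (SD 0.31, n = 5). The difference, with each population weighted equally, was 2.69 (SE 0.36), a 6.44-fold change (limma adjusted p = 5.57e-06). An exact two-sided permutation of the arrays gave p = 0.0045 over 2002 splits. In the deposited values the groups overlapped, because Thy-1+CD24medCD49fhigh replicates 1 and 3 lay among the luminal arrays. With array medians subtracted the lowest basal array read -0.87 and the highest luminal array -1.46. Without those 2 Thy-1+ arrays the difference in the deposited values was 3.16 (SE 0.25). Procr was 0.86 in the basal arrays, against -1.55 in the luminal arrays, a difference of 2.44 (SE 0.37, adjusted p = 2.42e-05), or 5.43-fold. Its lowest basal array stood at 0.05 and its highest luminal array at -1.18. No basal array overlapped a luminal one, which held as higher for 9.51% of all rows, and the exact permutation p of 0.0005 was the smallest the design allows. Thy1 was 0.46 in the basal arrays, against -0.83 in the luminal arrays, a difference of 1.25 (SE 0.39, adjusted p = 0.0141), or 2.38-fold, with exact permutation p = 0.0355. Its basal arrays reached down into the luminal range. The Thy1 call was lost without CD24medCD49f-/low replicate 2 (1.20, adjusted p = 0.0679), and the difference was 0.68 (SE 0.24, adjusted p = 0.0311) without Thy-1+CD24medCD49fhigh replicates 1 and 3.

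**Figure D1:**
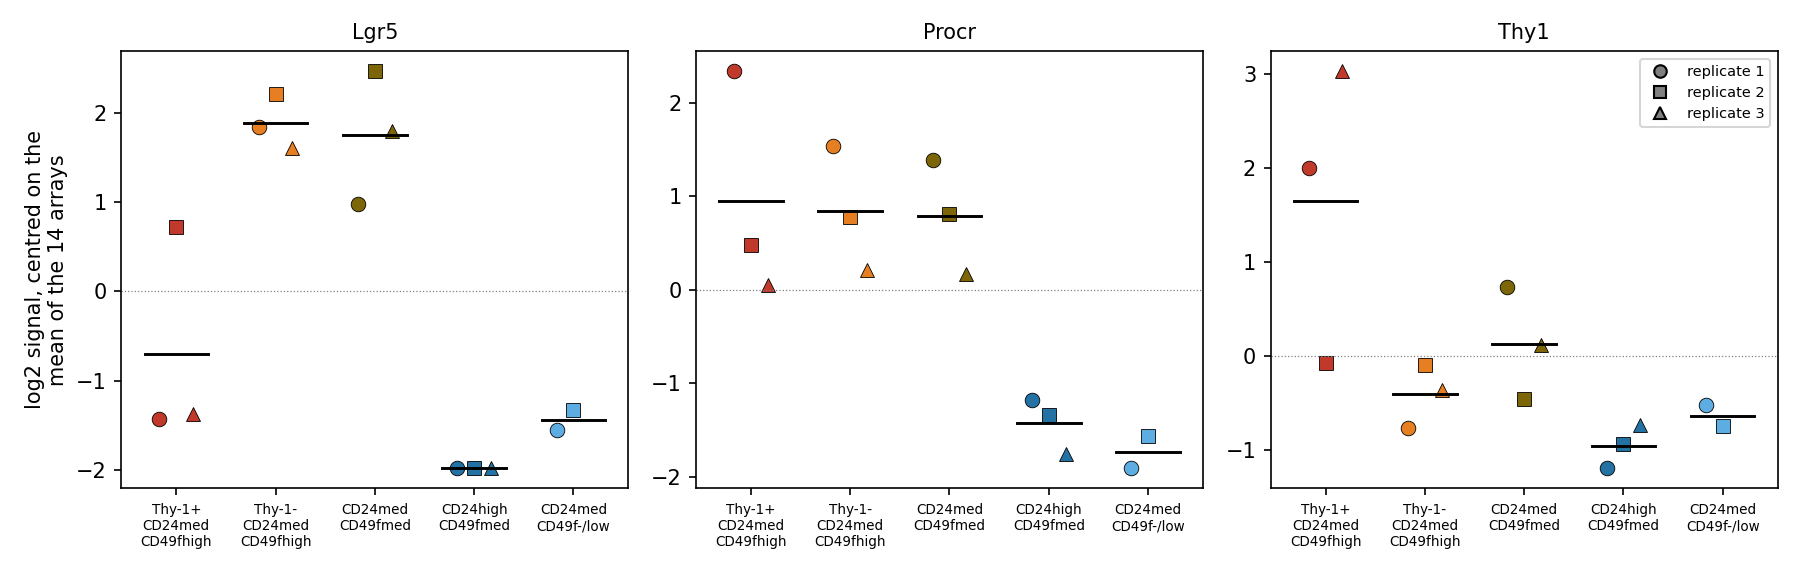
Level of Lgr5, Procr and Thy1 in each of the 14 arrays (log2 signal centred on the mean of the 14 arrays, y axis) by sorted population (x axis). Markers show the replicate number and the horizontal bars are population means. Lgr5 is low in Thy-1+CD24medCD49fhigh replicates 1 and 3 and in every luminal array, Procr separates basal from luminal arrays, and Thy1 is highest in Thy-1+CD24medCD49fhigh replicates 1 and 3.

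Lgr5, the R-spondin receptor, was high in Thy-1-CD24medCD49fhigh and CD24medCD49fmed cells. In Thy-1+CD24medCD49fhigh replicates 1, 2 and 3 it read -1.43, 0.72 and -1.38. In Thy-1-CD24medCD49fhigh cells it read 1.84, 2.21 and 1.61, and in CD24medCD49fmed cells 0.98, 2.47 and 1.80. Every array of these 2 populations was above every Thy-1+CD24medCD49fhigh array. CD24highCD49fmed cells read -1.98, -1.97 and -1.98, the lowest level and the narrowest spread of any population, and CD24medCD49f-/low cells -1.55 and -1.33. Centred values do not show whether these luminal levels were above background. On the deposited scale the 2 low Thy-1+CD24medCD49fhigh arrays thus stood at the level of the CD24medCD49f-/low arrays, while replicate 2 stood nearer to the other basal arrays. With array medians subtracted those 2 arrays read -0.69 and -0.87, above the CD24medCD49f-/low arrays (-1.59 and -1.46). In descending order the means were 1.89 ± 0.30 (Thy-1-CD24medCD49fhigh), 1.75 ± 0.74 (CD24medCD49fmed), -0.70 ± 1.23 (Thy-1+CD24medCD49fhigh), -1.44 ± 0.16 (CD24medCD49f-/low) and -1.98 ± 0.0046 (CD24highCD49fmed) (SD, n = 3, 3, 3, 2 and 3). The first 2 of this order, and Thy-1+CD24medCD49fhigh beside CD24medCD49f-/low, overlapped in the deposited values.

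Lgr5 in Thy-1+CD24medCD49fhigh cells differed from that in Thy-1-CD24medCD49fhigh cells by -2.58 (SE 0.70, adjusted p = 0.213 by limma) and did not pass. Of all rows 0.0417% passed, and 4.8% had every Thy-1+ array below every Thy-1- array, as Lgr5 did. Against CD24medCD49fmed cells the difference was -2.45 (SE 0.67, adjusted p = 0.548), with 0% of rows passing (383 rows at an unadjusted p under 0.05) and 6.86% separated in this way. Same-numbered arrays of these 2 populations deviated alike from their population means (r = 0.39 for each number). The labels do not say what a number shares. With the number as a block the difference passed (SE 0.55, limma adjusted p = 0.00475). It also passed without Thy-1+CD24medCD49fhigh replicate 2 (-3.16, adjusted p = 0.0387). The exact permutation p was 0.1 in both comparisons, the smallest that 3 against 3 arrays can give. With replicates 1 and 3 of the Thy-1+ cells left out, the single remaining array differed by -1.17 (SE 0.54) from Thy-1-CD24medCD49fhigh and by -1.03 (SE 0.54) from CD24medCD49fmed cells. Thy-1-CD24medCD49fhigh and CD24medCD49fmed cells differed by 0.14 (SE 0.40, adjusted p = 0.999), where again 0% of rows passed and 84 rows had an unadjusted p under 0.05. CD24highCD49fmed minus CD24medCD49f-/low was -0.54 (SE 0.18, adjusted p = 0.100), with no overlap of arrays, as in 15.2% of rows in that direction. That difference passed when each array was centred on its median (-0.71, limma adjusted p = 0.0486). Centring lowered the CD24highCD49fmed arrays by 0.23 to 0.28 and the CD24medCD49f-/low arrays by 0.04 and 0.14. The call passed for 5.59% of all rows in this comparison.

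The other Lgr receptors also read lower in these 2 arrays than in replicate 2 of the same population, and each was below 0 in 1 Thy-1-CD24medCD49fhigh array as well. Lgr4, a more widely expressed R-spondin receptor, read -0.70, 0.99 and -0.63 in Thy-1+CD24medCD49fhigh cells, against 1.04, 0.39 and -0.46 in Thy-1-CD24medCD49fhigh cells, 1.05, 1.07 and 0.77 in CD24medCD49fmed cells and -0.87 to -0.58 in luminal arrays. With array medians subtracted, Lgr4 read 0.04, 0.91 and -0.12 in Thy-1+CD24medCD49fhigh cells, above every luminal array (-1.10 to -0.71). Lgr5 on that scale read -0.69, 0.64 and -0.87, also above every luminal array (-2.27 to -1.46). Lgr6, another member, known from hair follicle stem cells, read -0.75, 1.10 and -0.94 in Thy-1+CD24medCD49fhigh cells, against 0.95, -0.36 and 0.85 in Thy-1-CD24medCD49fhigh and 0.66, 0.82 and 0.89 in CD24medCD49fmed cells. Its median-centred values in Thy-1+CD24medCD49fhigh cells were -0.0039, 1.02 and -0.43. In Thy-1+CD24medCD49fhigh minus Thy-1-CD24medCD49fhigh cells Lgr4 differed by -0.44, and by 0.66 without replicates 1 and 3 of the Thy-1+ cells, and Lgr6 by -0.68 and 0.62, so the sign of both was set by those 2 arrays. In luminal cells Lgr6 had a median of -1.18 in CD24highCD49fmed arrays against 0.13 and 0.20 in the CD24medCD49f-/low arrays, a difference of -1.35 (SE 0.22, limma adjusted p = 0.0187). Rnf43, a membrane ubiquitin ligase that removes Wnt receptors and is itself held off by R-spondin, read -2.11, 0.43 and -1.32 in Thy-1+CD24medCD49fhigh cells, against 0.67, 0.75 and 0.98 in Thy-1-CD24medCD49fhigh and 0.31, 0.13 and 0.60 in CD24medCD49fmed cells. The Rnf43 difference between the CD24medCD49fhigh populations was -1.80 (SE 0.70, adjusted p = 0.739), and -0.37 without replicates 1 and 3. For Lgr4, Lgr6 and Rnf43, as for Lgr5, replicates 1 and 3 were the low arrays of the Thy-1+ population.

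Over the 32 of 59 Wnt and R-spondin pathway genes in the table, 20 were higher and 6 lower in basal than in luminal cells (17.4% and 27.7% of all rows). Their median difference was 1.20, against -0.33 over all rows. Of the receptors 7 of 10 were higher and 1 lower, of the inhibitors 6 of 8 were higher and 0 lower, and of the ligands 3 of 8 were higher and 3 lower. Of the targets and effectors 4 of 6 were higher and 2 lower. The most changed were Wif1, a secreted Wnt inhibitor (4.69, SE 0.40), Dkk3, of the Dickkopf family (2.97, SE 0.36), Nkd2, an intracellular brake on the pathway (2.76, SE 0.34), and Bambi, a pseudoreceptor that dampens TGFβ signals (2.46, SE 0.37). In the 3 comparisons between basal populations 0 of the 32 passed. The list's median was -0.57 in Thy-1+CD24medCD49fhigh minus Thy-1-CD24medCD49fhigh cells, where the median of all rows was -0.42, and -0.95 in Thy-1+CD24medCD49fhigh minus CD24medCD49fmed cells, where it was -0.51. Without Thy-1+ replicates 1 and 3 these medians were 0.10 (all rows 0.08) and 0.00087 (all rows -0.0018). Between the luminal populations (3.02% of all rows higher and 2.57% lower) 2 were higher in CD24highCD49fmed cells, among them the ligand gene Wnt5a (1.19, SE 0.27), and 3 were lower: Lgr6, the ligand gene Wnt5b (-1.32, SE 0.24) and the secreted inhibitor Sfrp2 (-1.57, SE 0.35).

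Genes whose profile was most like that of Lgr5 were ranked by Pearson's r among 6043 other named genes, as a description. Over the 14 arrays they were Fhod3, an actin-assembling formin (r = 0.98), Bambi (0.97), Nrg1, an EGF-family ligand (0.97), Nox4, an NADPH oxidase (0.97), and Pla2g7, a lipid hydrolase (0.97). Spata13, a guanine nucleotide exchange factor gene, was least like it (-0.97). Over the 9 basal arrays the first was Tspan8 (0.99), a tetraspanin that has itself been proposed to mark quiescent mammary stem cells, followed by Aktip, Ankrd6, Fkbp7 and Usp10 (0.97 to 0.98). The median of all named genes with Lgr5 over those arrays was 0.53, and 0.06 after subtraction of the array medians, which left Tspan8 at 0.97. Tspan8 read -2.15, -0.56 and -2.22 in Thy-1+CD24medCD49fhigh cells, against 0.03, 0.57 and -0.36 in Thy-1-CD24medCD49fhigh cells. That difference was -1.72, and -0.64 without Thy-1+ replicates 1 and 3. Unlike Lgr5 it was lower in basal than in luminal cells (-1.37, SE 0.33, adjusted p = 0.00223).

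**Figure D2:**
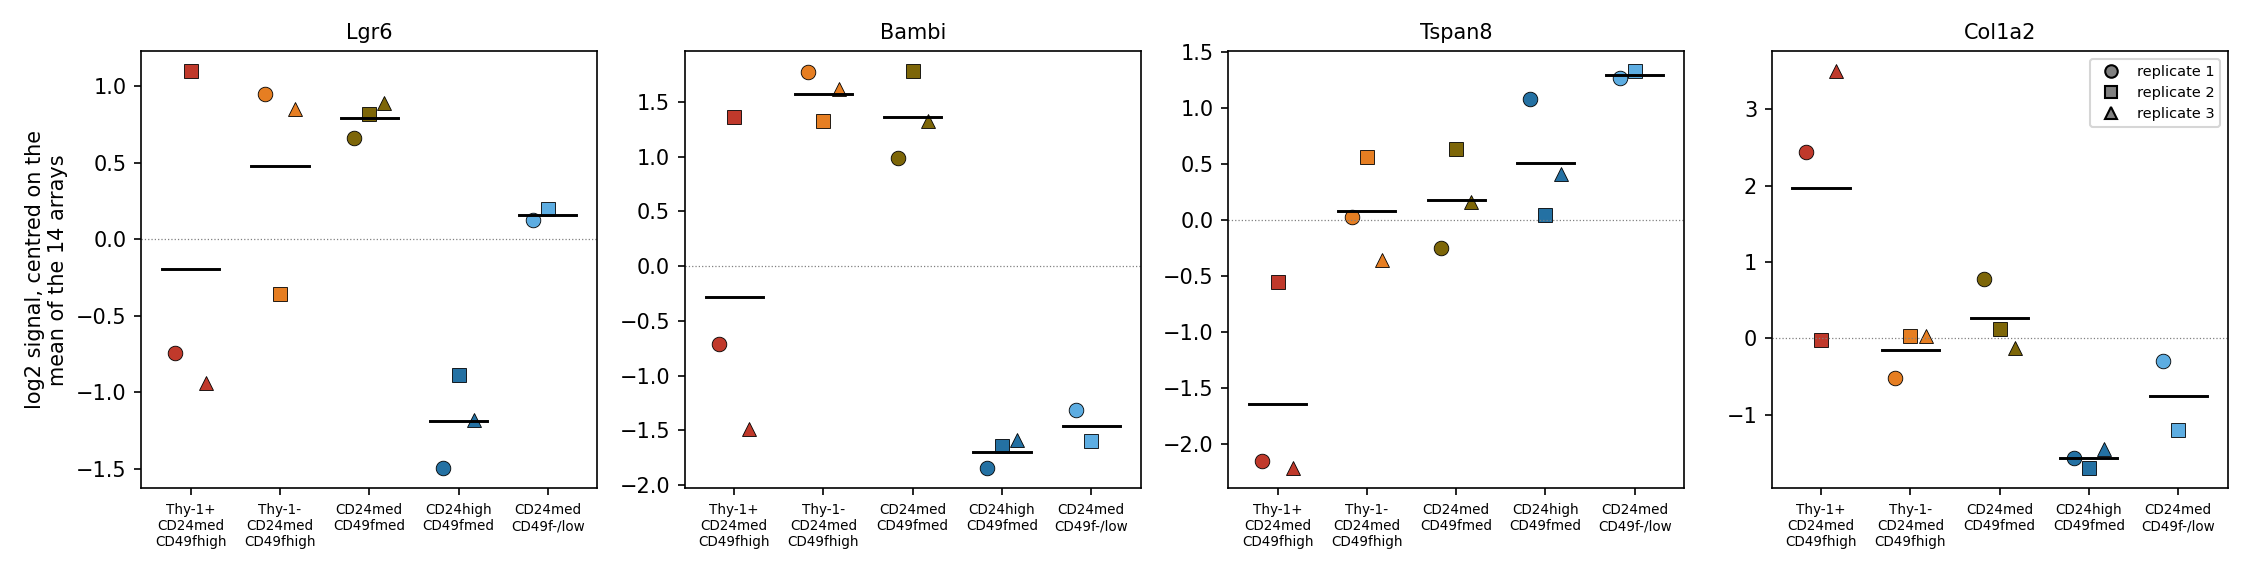
Levels of Lgr6, Bambi, Tspan8 and Col1a2 in the 14 arrays (log2 signal centred on the mean of the 14 arrays, y axis) by sorted population (x axis), with replicate markers and population means as bars. Among the Thy-1+CD24medCD49fhigh arrays Lgr6, Bambi and Tspan8 are lowest in replicates 1 and 3, where Col1a2 reads 2.43 and 3.49.

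Procr, the protein C receptor, did not separate the basal populations on these arrays. By real-time PCR, which was not examined here, the paper reports it as enriched in Thy-1+CD24medCD49fhigh cells. On the arrays Procr read 2.33, 0.48 and 0.05 in Thy-1+CD24medCD49fhigh cells, 1.54, 0.78 and 0.21 in Thy-1-CD24medCD49fhigh cells and 1.38, 0.81 and 0.17 in CD24medCD49fmed cells. The ranges of the last 2 lay inside that of the Thy-1+ cells. CD24highCD49fmed cells read -1.18, -1.34 and -1.76, and CD24medCD49f-/low cells -1.91 and -1.56. The population means ran 0.95 ± 1.21, 0.84 ± 0.67, 0.79 ± 0.61, -1.43 ± 0.30 and -1.73 ± 0.24 in that order (SD, n = 3, 3, 3, 3 and 2), and the only neighbours whose arrays did not overlap were CD24medCD49fmed and CD24highCD49fmed. Thy-1+CD24medCD49fhigh minus Thy-1-CD24medCD49fhigh was 0.11 (SE 0.70, adjusted p = 0.961), and Thy-1+CD24medCD49fhigh minus CD24medCD49fmed was 0.16 (SE 0.65, adjusted p = 0.897). Thy-1-CD24medCD49fhigh minus CD24medCD49fmed was 0.05 (SE 0.43, adjusted p = 0.999), and CD24highCD49fmed minus CD24medCD49f-/low was 0.31 (SE 0.23, adjusted p = 0.406). The standard errors leave room for changes of more than a doubling in either direction between Thy-1+CD24medCD49fhigh and the other basal cells. Both of those differences turned negative without Thy-1+CD24medCD49fhigh replicate 1 (-0.58 and -0.53).

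What Procr varied with among basal arrays was the replicate number. In each of the 3 populations replicate 1 was the highest and replicate 3 the lowest, with means of 1.75 (SD 0.51), 0.69 (SD 0.18) and 0.14 (SD 0.08) for numbers 1, 2 and 3 (n = 3 each). Of the variance over these arrays 87.0% lay between replicate numbers, 0.917% between populations and 12.1% in the rest. The medians of the same shares over all rows were 25.9%, 27.6% and 42.3%. A larger share between numbers than that of Procr was found in 28 rows (0.389%), and the order with 1 highest and 3 lowest in all 3 populations in 120 rows (1.67%). After centring each array on its median the shares for Procr were 68.4% between numbers, 10.1% between populations and 21.5% in the rest. Replicate 1 was then still the highest in each population, but in Thy-1+CD24medCD49fhigh cells replicate 3 (0.56) passed replicate 2 (0.40). The labels do not say what a replicate number shares. Lgr5 had 18.2% and Thy1 16.6% of their variance between numbers, with 74.7% and 53.6% between populations.

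Endothelial genes moved with Procr over these arrays. The median of 16 measured endothelial markers (of 18 listed) was 2.78, 0.00 and -0.09 in Thy-1+CD24medCD49fhigh replicates 1, 2 and 3, 0.44, -0.67 and -0.78 in Thy-1-CD24medCD49fhigh and 2.44, 0.83 and -0.70 in CD24medCD49fmed arrays. In the deposited values replicate 1 was the highest and replicate 3 the lowest in all 3 populations here too. With array medians subtracted, Thy-1+CD24medCD49fhigh replicate 3 (0.42) passed replicate 2 (-0.07), as it did for Procr. Pecam1, which encodes the CD31 antigen stained before sorting, read 3.08, 0.04 and -0.43 in Thy-1+CD24medCD49fhigh, 1.19, -0.77 and -0.80 in Thy-1-CD24medCD49fhigh and 2.11, 0.84 and -1.22 in CD24medCD49fmed arrays. Cdh5, the endothelial cadherin gene, read 2.76, 0.15 and -0.78, then 0.76, -0.71 and -0.72, then 2.91, 1.07 and -0.96 in the same order. Of the 16 markers 16 were above their 14-array mean in Thy-1+CD24medCD49fhigh replicate 1 and in CD24medCD49fmed replicates 1 and 2, and 11 in Thy-1-CD24medCD49fhigh replicate 1. The pericyte markers (7 of 8 measured) had medians of 2.35, -0.22 and 0.43 in Thy-1+CD24medCD49fhigh arrays and -0.58 to 1.06 in the other basal arrays, and the adipocyte markers (4 of 8) ranged from -0.83 to 2.54 over the basal and -1.11 to -0.64 over the luminal arrays. Luminal genes were highest in replicate 3. The median of 15 measured luminal epithelial markers was -1.44, -1.47 and -0.31 in Thy-1+CD24medCD49fhigh replicates 1, 2 and 3, -1.28, -0.80 and -0.04 in Thy-1-CD24medCD49fhigh and -1.87 to -0.64 in CD24medCD49fmed arrays, with replicate 3 the highest in each, against 1.60 to 1.83 in luminal arrays. The part of any such RNA in the spread of Procr among basal arrays was not tested.

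In the 3 basal arrays of lowest endothelial median Procr was above its level in the luminal arrays. Thy-1-CD24medCD49fhigh replicates 2 and 3 and CD24medCD49fmed replicate 3, with endothelial medians of -0.67, -0.78 and -0.70, read 0.78, 0.21 and 0.17 for Procr, and the highest luminal array read -1.18. The luminal arrays had endothelial medians of -1.02 to -0.78, so 1 of the 3 basal medians lay in that range. In the same 3 arrays the fibroblast marker medians were 0.30, 0.34 and 0.36, against -1.49 to -0.42 in luminal arrays. Their pericyte marker medians were 0.19, -0.21 and 0.04, against -0.94 to -0.56. The part of RNA from any of these cells in the Procr levels was not tested.

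**Figure D3:**
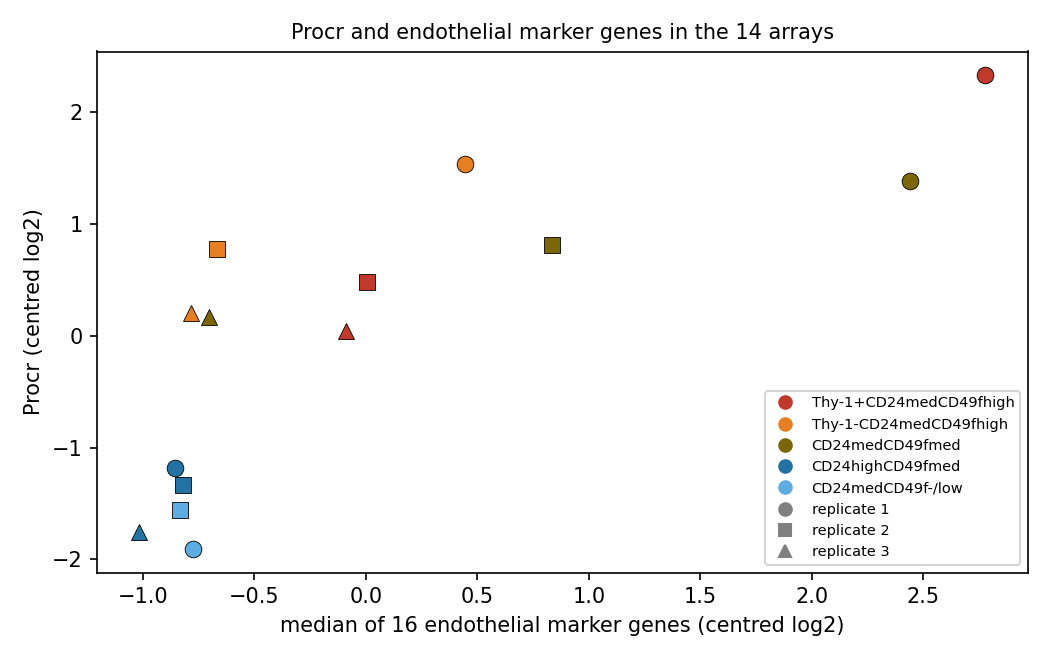
Procr (y axis) against the median of 16 endothelial marker genes (x axis) in the 14 arrays, both as log2 signal centred on the mean of the 14 arrays, with colours for populations and markers for replicate numbers. The 3 basal arrays of lowest endothelial median, at -0.67, -0.78 and -0.70, lie above all luminal arrays for Procr, and 2 of them lie to the right of every luminal array.

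Of the protein C and thrombin pathway 8 of 21 genes were in the table. In basal minus luminal cells 5 were higher (17.4% of all rows) and 2 lower (27.7%), with a median difference of 1.89 against -0.33 over all rows. They included Thbd, which encodes thrombomodulin (2.76, SE 0.52), Pros1, encoding the cofactor protein S (2.59, SE 0.34), F2r, the thrombin receptor gene (2.53, SE 0.28), and S1pr3, a sphingosine-1-phosphate receptor gene (2.45, SE 0.37). Thbd read 3.58, 0.72 and 1.59 in Thy-1+CD24medCD49fhigh, 1.30, -1.09 and -0.47 in Thy-1-CD24medCD49fhigh and 2.62, 1.26 and -0.63 in CD24medCD49fmed arrays, so replicate 1 was the highest in each, as for Procr. F2r showed no such order, with -0.04, 0.79 and 0.14, then 0.88, 1.48 and 1.21, then 1.36, 1.56 and 0.62. In the other 4 comparisons 0 of the 8 passed.

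Over the 14 arrays the genes most like Procr were Itga1, a collagen-binding integrin subunit (r = 0.97), Akap12, a kinase scaffold (0.97), Slc10a6, a steroid sulfate transporter (0.96), Pdgfrb, the pericyte growth factor receptor (0.95), and Gjc1, a connexin (0.95). Cdo1, a cysteine dioxygenase, was least like it (-0.96). Over the 9 basal arrays they were Plvap, of the diaphragms of endothelial fenestrae (0.96), Sele, the endothelial adhesion molecule E-selectin (0.96), Itga1 (0.92), G2e3 (0.92) and Akap12 (0.92), against a median of -0.22 over all named genes. Plvap is 1 of the 16 endothelial markers above, and read, in the replicate 1 arrays, 2.59 in Thy-1+CD24medCD49fhigh, 1.34 in Thy-1-CD24medCD49fhigh and 1.51 in CD24medCD49fmed cells.

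Thy1, the gene of the sort antigen, read 2.00, -0.07 and 3.03 in Thy-1+CD24medCD49fhigh cells. It read -0.77, -0.10 and -0.36 in Thy-1-CD24medCD49fhigh and 0.73, -0.46 and 0.12 in CD24medCD49fmed cells. CD24highCD49fmed cells read -1.19, -0.93 and -0.74, and CD24medCD49f-/low cells -0.53 and -0.74. The transcript was thus high in 2 arrays labelled Thy-1+CD24medCD49fhigh, while the array labelled replicate 2 of that population stood next to replicate 2 of the Thy-1- cells and inside the range of the CD24medCD49fmed cells. In descending order the means were 1.65 ± 1.58 (Thy-1+CD24medCD49fhigh), 0.13 ± 0.60 (CD24medCD49fmed), -0.41 ± 0.34 (Thy-1-CD24medCD49fhigh), -0.63 ± 0.15 (CD24medCD49f-/low) and -0.95 ± 0.23 (CD24highCD49fmed) (SD, n = 3, 3, 3, 2 and 3). Each neighbouring pair in this order overlapped.

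As the check of the sort, Thy1 in Thy-1+CD24medCD49fhigh minus Thy-1-CD24medCD49fhigh cells was 2.06 (SE 0.71), in the direction of the labels but not past the threshold (limma adjusted p = 0.699). All 3 Thy-1+ arrays were above all 3 Thy-1- arrays, as in 1.86% of rows. Without Thy-1+ replicate 2 the difference was 2.92 (adjusted p = 0.0639), and with that array alone it was 0.33 (SE 0.54). Thy-1+CD24medCD49fhigh minus CD24medCD49fmed was 1.52 (SE 0.72, adjusted p = 0.548). That value passed without Thy-1+ replicate 2 (2.38, adjusted p = 0.0438) and changed its sign without replicates 1 and 3 (-0.20, SE 0.48). Thy-1-CD24medCD49fhigh minus CD24medCD49fmed was -0.54 (SE 0.37, adjusted p = 0.999), and CD24highCD49fmed minus CD24medCD49f-/low was -0.32 (SE 0.20, adjusted p = 0.335).

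**Figure D4:**
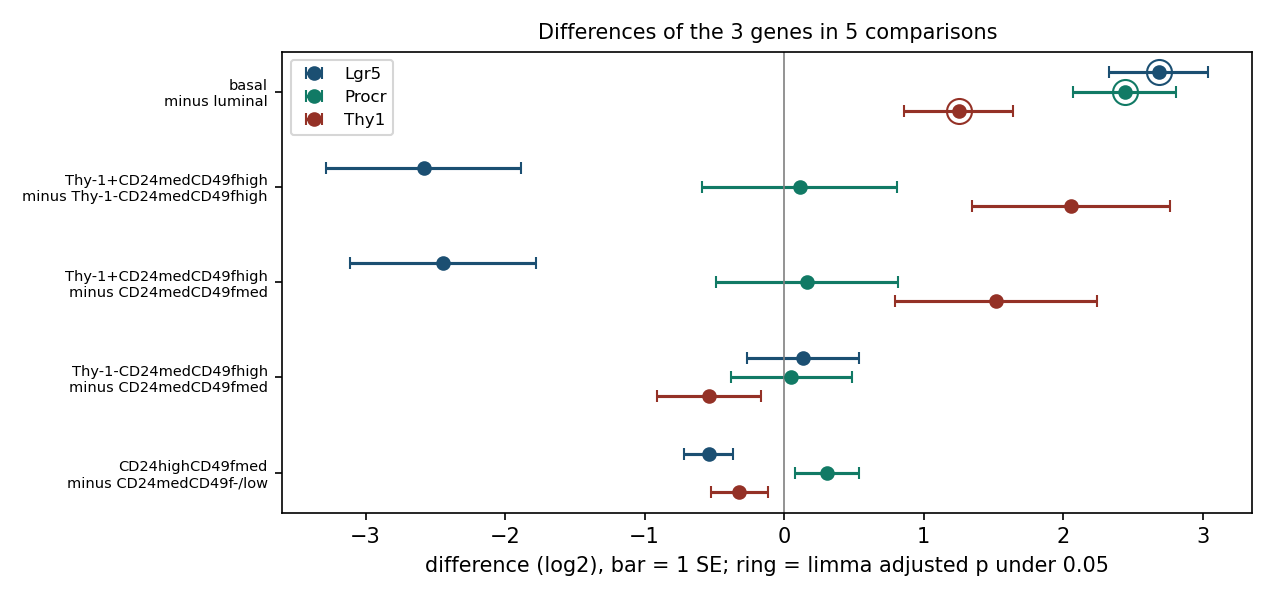
Difference of Lgr5, Procr and Thy1 (x axis, log2, with bars of 1 SE) in the 5 comparisons (y axis). Rings mark a limma adjusted p under 0.05, which only the 3 values of basal minus luminal cells reached.

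Both type I collagen genes were among the 5 genes most like Thy1 over the 14 arrays. Over the 14 arrays Art3, an ADP-ribosyltransferase family gene (r = 0.98), Col1a1 and Col1a2, the type I collagen genes (0.97 and 0.97), Rarres2, which encodes chemerin (0.97), and Lama2, a laminin chain gene (0.97), were the most like it, and Kcnk1, a potassium channel gene, was the least (-0.98). Over the 9 basal arrays Art3 (0.99), Col1a2 (0.98), Vmn1r42 (0.98), Sprr2d (0.97) and Gatm (0.97) came first and Bambi last (-0.99), where the median of all named genes was -0.54, or -0.12 after median centring. Col1a2 read 2.43, -0.03 and 3.49 in Thy-1+CD24medCD49fhigh cells, against -0.52, 0.03 and 0.03 in Thy-1-CD24medCD49fhigh and 0.78, 0.13 and -0.13 in CD24medCD49fmed cells. Col1a1 read 2.71, -0.45 and 2.89 in Thy-1+CD24medCD49fhigh cells. Without Thy-1+ replicates 1 and 3 the Col1a2 difference of 2.12 from Thy-1-CD24medCD49fhigh cells was 0.13, and that of Col1a1, 1.97, was -0.19. As a whole the fibroblast markers (12 of 17 measured) had medians of 0.56, 0.31 and 1.29 in Thy-1+CD24medCD49fhigh arrays, 0.17 to 0.34 in Thy-1-CD24medCD49fhigh, 0.36 to 0.74 in CD24medCD49fmed and -1.49 to -0.42 in luminal arrays. In Thy-1+CD24medCD49fhigh minus CD24medCD49fmed cells 7 of the 12 were above 0, with differences of -2.13 to 1.83, and 0 passed. Pdgfra, whose product is CD140α, the fibroblast antigen named in the study's stains, read 0.16, 0.21 and 1.18 in Thy-1+CD24medCD49fhigh arrays. The Schwann cell markers (7 of 12 measured) had medians of 1.34, 0.53 and 1.78 in those arrays, against -0.23 to 0.48 in the other basal and -1.11 to -0.70 in luminal arrays. Of these 7, 1 passed as higher in Thy-1+CD24medCD49fhigh minus Thy-1-CD24medCD49fhigh cells (limma), where 0.0417% of all rows passed. Their median difference there was 0.72, and -0.23 without Thy-1+ replicates 1 and 3. Of 12 T cell markers 2 were measured, with medians of -2.75 to 0.54 in basal and 0.30 to 0.45 in luminal arrays. The part of RNA from such cells in the level of Thy1 was not tested.

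Among 23 of 37 GPI-anchored proteins and partners of Thy-1 in the table, 11 were higher and 4 lower in basal than in luminal cells, with a median difference of 0.81 (17.4% and 27.7% of all rows, whose median was -0.33). Of these Gfra2, a neurturin receptor gene (2.48, SE 0.30), Reck, an inhibitor of matrix metalloproteases (2.39, SE 0.29), and Prnp, the prion protein gene (2.37, SE 0.28), rose most, while Ly6d, a small GPI-anchored protein gene of the Ly6 family, fell by 2.60 (SE 0.40). Between basal populations 0 of 23 passed. In CD24highCD49fmed minus CD24medCD49f-/low cells 5 were lower and 0 higher (2.57% and 3.02% of all rows), among them the glypican gene Gpc6 (-1.44, SE 0.18).

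The 3 genes were then set against each other over the 9 basal arrays, in 3 pairs. Lgr5 and Thy1 ran in opposite directions, with Pearson's r = -0.92 (two-sided exact permutation p = 0.00357, 0.0107 adjusted over the 3 pairs) and Spearman's rho = -0.80 (exact p = 0.0138, adjusted 0.0415). The relation rested on Thy-1+CD24medCD49fhigh replicates 1 and 3, the arrays with the highest Thy1 and the lowest Lgr5. Without them r was -0.53 over 7 arrays (exact p = 0.217). Taken as deviations from each population's mean, r was -0.88 (exact p = 0.0463, adjusted 0.139), and as deviations from each replicate number's mean it was -0.92 (adjusted p = 0.0417, exact permutation). After median centring r was -0.89 but rho was -0.57 (exact p = 0.121), and after quantile normalization r was -0.82 and rho -0.60. Of 6043 named genes 329 (5.44%) had an r with Thy1 as low as that of Lgr5 or lower, and 17 (0.281%) an r with Lgr5 as low as that of Thy1 or lower.

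No relation of Procr to either gene was detectable. With Thy1 its r was 0.07 (exact permutation p = 0.852) and rho -0.23 (p = 0.552, exact), and with Lgr5 r was -0.24 (exact p = 0.549) and rho 0.05 (exact p = 0.912). Without Thy-1+CD24medCD49fhigh replicate 1, the array with the highest Procr, the first r was -0.43 and the second 0.40, so that both changed sign. Without replicate 3 of that population they were 0.64 and -0.66 (exact permutation, adjusted p = 0.0839 for both), and after median centring of all 9 arrays 0.43 and -0.44, so the size and sign of both rested on those 2 arrays and on the scaling. Thy-1+CD24medCD49fhigh replicate 1 read 2.00 for Thy1 and 2.33 for Procr, and had the endothelial median of 2.78 given above. Replicate 3 of that population had the highest Thy1 (3.03) and the lowest basal Procr (0.05). Also above 0 for both genes were CD24medCD49fmed replicates 1 (0.73 and 1.38) and 3 (0.12 and 0.17), with endothelial medians of 2.44 and -0.70.

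**Figure D5:**
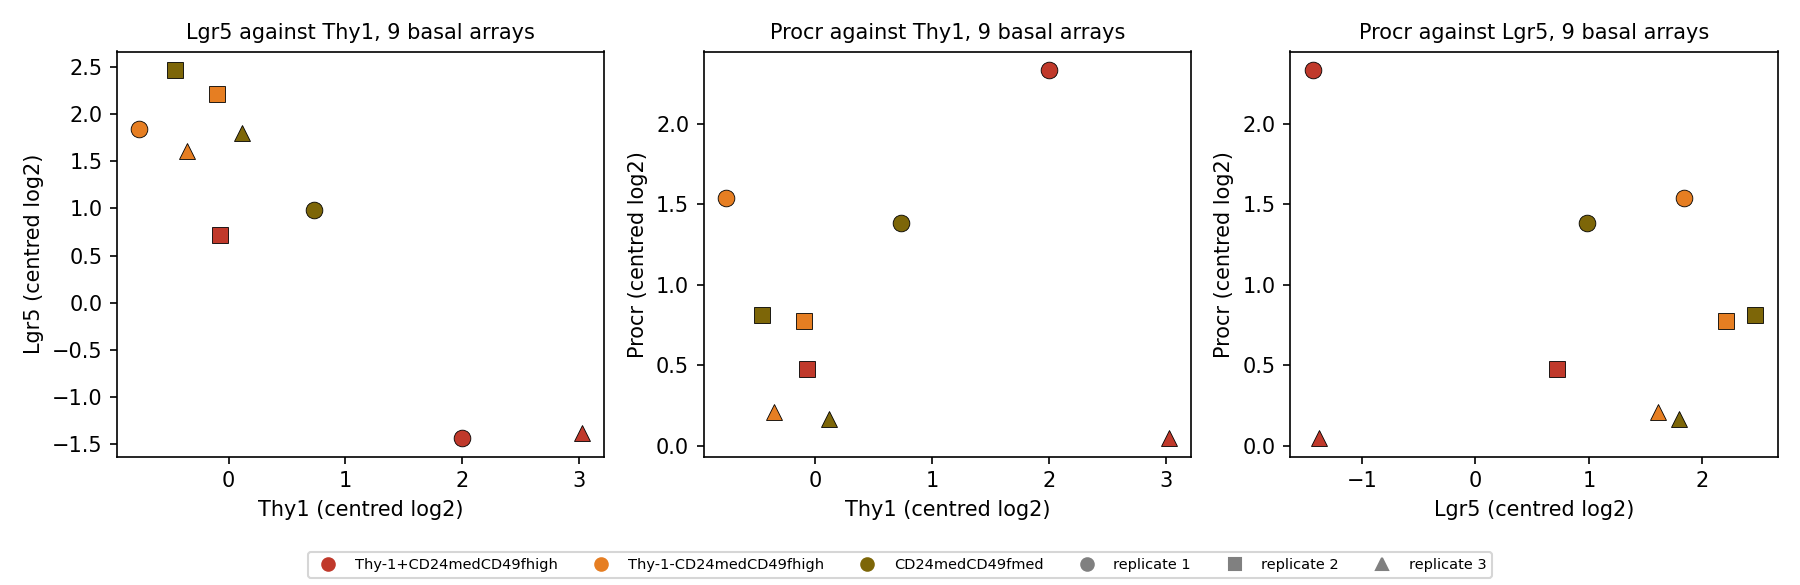
The 3 pairs of genes over the 9 basal arrays, as log2 signal centred on the mean of the 14 arrays on both axes, with colours for populations and markers for replicate numbers. In the plot of Lgr5 against Thy1 2 arrays of Thy-1+CD24medCD49fhigh cells lie apart at the lower right, and the plots of Procr show no common direction.

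Of 26 other genes proposed for mammary stem cells 24 were in the table. In basal minus luminal cells 13 were higher (17.4% of all rows) and 4 lower (27.7%), with a median difference of 1.14, against -0.33 over all rows. Pdpn, a membrane mucoprotein gene (4.28, SE 0.37), Trp63, the basal transcription factor p63 (4.08, SE 0.37), and Krt15, a keratin gene (3.97, SE 0.51), rose most, and Kit, the receptor of luminal progenitors, fell by 3.93 (SE 0.27). None of the 24 passed in a comparison between basal populations by limma. The values with the largest size in Thy-1+CD24medCD49fhigh minus Thy-1-CD24medCD49fhigh cells were Zeb2, a repressor of epithelial genes (2.55, SE 0.72), and Tspan8 (-1.72, SE 0.69). Cdh5, named among endothelial markers above, is also on this list.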

How the data were processed

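RNA of sorted mammary cells was hybridized to 14 Affymetrix mouse genome arrays. Per the study's methods RMA (robust multichip average) was run in MIDAS by the authors, who then dropped dim probe sets and those varying less than 4-fold with Cluster, and subtracted each row's mean. The submitters' processing notes name RMA and GCRMA, with versions not given in the sources used here. The authors deposited 1 table of log2 values with 9645 probe sets, in which each row mean is 0 and the smallest row range is 2.0. Probe sets below the filter are absent, and centring removes absolute levels and signal over background. The number of arrays limits the precision.

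Of the probe sets 8499 carried 1 symbol and were averaged to 6044 genes. The 199 with several symbols and 947 with none were kept as single rows (7190 rows). Lgr5, Procr and Thy1 had 1 probe set each. Symbols came from GEO's platform annotation, and coordinates and the promoter from RefSeq.

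Comparisons were fitted on all rows with limma 3.58.1 in R 4.3.3 (lmFit, eBayes), two-sided, calling rows at p under 0.05 after Benjamini-Hochberg adjustment, on the arrays of the populations compared. Basal minus luminal set the mean of 3 populations against the mean of 2, over 14 arrays. The fit was tested on simulated data. Lgr5, Procr and Thy1 were tested again by permuting arrays exactly, and correlations by all pairings of 9 arrays (Python 3.11.15, numpy 2.4.6, pandas 2.3.3; figures in matplotlib 3.10.9). The members and all gene lists were chosen with earlier results of these data known. Besides the members, the genes named are the 5 most and 1 least like each of them over 14 and over 9 arrays, the most changed members of each pathway list (up to 4 that passed, otherwise 2), and markers. Rnf43, Lgr4 and Lgr6 are among the list genes so named. The per-array accounts of Thbd, F2r, Pdgfra and the Lgr receptors were chosen after their values were seen.

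Pairing by replicate number was judged from the correlation of same-numbered arrays' deviations from their group means. By that measure numbers paired Thy-1+CD24medCD49fhigh with CD24medCD49fmed arrays (r = 0.388, 0.391 and 0.386) and Thy-1-CD24medCD49fhigh with CD24medCD49fmed arrays (0.374, 0.328 and 0.558). They did not pair the 2 CD24medCD49fhigh populations (-0.0022, -0.160 and 0.245). The measure came from the same arrays as the tests, and the labels do not say what a number shares. Alternatives were each probe set on its own row, all arrays in 1 fit, a replicate block, array weights, median centring, quantile normalization, rank products (100 permutations, p under 0.01 without adjustment) and leaving out each array. Leaving out the 2 Thy-1+CD24medCD49fhigh arrays of lowest median was added after the data were seen.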

Additional observations from a re-analysis of the deposited data

How the results depend on the processing

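Basal minus luminal kept its direction and threshold for Lgr5 and Procr under all alternatives run (2.45 to 2.81 and 2.21 to 2.59 with 1 array left out). Thy1 ranged over 1.02 to 1.54 and lost its call only without CD24medCD49f-/low replicate 2 (1.20).

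For Thy-1+CD24medCD49fhigh minus Thy-1-CD24medCD49fhigh, Lgr5 passed with array weights (-2.80, adjusted p = 0.00372, limma) and by rank products (-2.58), and Thy1 with array weights (2.83) and by rank products (2.06). Rank products, which were not adjusted, called 97 of 7190 rows higher and 69 lower there. Procr turned negative with array weights (-0.41), quantile normalization (-0.061) and without the 2 Thy-1+CD24medCD49fhigh arrays of lowest median (-0.36). With 1 array left out the ranges were -3.29 to -2.22 for Lgr5, -0.58 to 0.57 for Procr and 1.37 to 2.92 for Thy1. For Thy-1+CD24medCD49fhigh minus CD24medCD49fmed, Lgr5 passed with the replicate block (-2.45) and by rank products (-2.45), and Thy1 by rank products (1.52). Unadjusted rank products called 79 of 7190 rows higher and 72 lower in that comparison. Procr turned negative with array weights (-0.0097) and without those 2 arrays (-0.31), as did Thy1 without them (-0.20). With 1 array left out the ranges were -3.16 to -2.08 for Lgr5, -0.53 to 0.62 for Procr and 0.83 to 2.38 for Thy1. For Thy-1-CD24medCD49fhigh minus CD24medCD49fmed, Lgr5 turned negative with array weights (-0.038) and ranged over -0.25 to 0.49, and Procr over -0.30 to 0.37. For CD24highCD49fmed minus CD24medCD49f-/low, Lgr5 passed after median centring (-0.71). The r of Lgr5 and Thy1 missed the threshold within populations (-0.88) and ranged over -0.94 to -0.89 with 1 array left out. The r of Procr ranged over -0.43 to 0.64 with Thy1 and -0.66 to 0.40 with Lgr5. The cause was not tested in any of these. Besides Lgr5 in Thy-1+CD24medCD49fhigh minus CD24medCD49fmed, the replicate block changed no call of the 3 genes. Where 1 array remained in a population, it was assumed to vary like the others.

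Counts of rows passing moved more. For Thy-1+CD24medCD49fhigh minus Thy-1-CD24medCD49fhigh, 3 rows passed, 199 with array weights, 5 with the block and 0 after either rescaling. For Thy-1+CD24medCD49fhigh minus CD24medCD49fmed, 0 passed, 55 with the block, 4 with array weights and 856 without Thy-1+CD24medCD49fhigh replicate 2. For CD24highCD49fmed minus CD24medCD49f-/low, 402 passed, 829 with the block, 727 with array weights, 608 by probe set, 4 with all 14 arrays in 1 fit and 0 to 662 with 1 array left out. Basal minus luminal had 3242 and 2124 to 4270 with 1 array left out. The probe set of largest range gave the same correlations, since each of the 3 genes had 1 probe set.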
